A study of Homo sapiens with 11 samples.

Results

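The genes described here are 10 well-known targets of the hypoxia-inducible factors (HIFs): EGLN3, CA9, BNIP3, BNIP3L, ANKRD37, NDRG1, ADM, VEGFA, KDM3A and P4HA1. They were chosen by name as known targets, and all 10 were among the 19990 gene symbols of the deposited count table and passed the filter on low counts. RNA was measured in cardiomyocytes derived from the established human iPSC line WTC11 (iPSC, induced pluripotent stem cell) at passage 63. The cells came from 1 differentiation, directed with CHIR99021 (a GSK3 inhibitor that turns on Wnt signalling) and then IWP2 (a blocker of Wnt secretion), and were kept in RPMI1640 medium with B27 and insulin. The groups were 4 wells at Day 30, 3 at Day 60 and 4 at Day 113, and poly(A) RNA was sequenced to 24.1 to 34.5 M counts a library (M, 1000000 counts). The wells are replicates of 1 differentiation and 1 line, so p-values cover only the spread between wells, and day and collection cannot be told apart. No group differed in a labelled oxygen level, and oxygen in the wells was not analysed here.

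HIF is a dimer of an oxygen-regulated alpha subunit (HIF1A, EPAS1 or HIF3A) and a constant partner, ARNT or ARNT2. In the presence of oxygen, prolyl hydroxylases encoded by the EGLN genes mark the alpha subunit, and the VHL ubiquitin ligase has it destroyed; when oxygen falls, the alpha subunit persists and binds a short DNA core, ACGTG or GCGTG, near its targets. The targets raise glycolysis, vessel growth, acid export and the removal of mitochondria, and in heart muscle they are known from ischaemia and from the fetal heart. The regulation of HIF is mostly at the level of protein, which RNA counts do not show.

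The HIF core was searched on both strands in the 250 bases before the RefSeq gene start (GRCh38.p14) of the 7 members that had a promoter entry. ACGTG was found in 4 of the 7 windows (CA9, BNIP3, ANKRD37 and P4HA1) and GCGTG in 3 (BNIP3, ADM and KDM3A). Of 27305 such windows over all genes, 18.7% held ACGTG, 31.9% held GCGTG and 43.1% held either. The windows with ACGTG are printed to show the core beside members that moved in different ways, and that of EGLN3 because it held neither form. Matches on either strand are in capitals (CACGT and CACGC are the same cores read on the other strand, and CACGTG counts as 2 overlapping matches).
CA9, chr9:35673678-35673927, plus strand: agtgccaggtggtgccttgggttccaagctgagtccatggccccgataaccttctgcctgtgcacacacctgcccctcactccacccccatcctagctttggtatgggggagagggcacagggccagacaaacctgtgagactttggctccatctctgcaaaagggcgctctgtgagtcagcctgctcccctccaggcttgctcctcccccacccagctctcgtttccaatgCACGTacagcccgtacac
BNIP3, chr10:131981924-131982173, minus strand: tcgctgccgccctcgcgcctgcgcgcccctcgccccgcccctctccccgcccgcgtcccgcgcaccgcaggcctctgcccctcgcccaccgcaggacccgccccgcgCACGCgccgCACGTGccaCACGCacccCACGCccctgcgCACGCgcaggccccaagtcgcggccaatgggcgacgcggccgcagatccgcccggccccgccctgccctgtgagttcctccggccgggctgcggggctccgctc
ANKRD37, chr4:185396591-185396840, plus strand: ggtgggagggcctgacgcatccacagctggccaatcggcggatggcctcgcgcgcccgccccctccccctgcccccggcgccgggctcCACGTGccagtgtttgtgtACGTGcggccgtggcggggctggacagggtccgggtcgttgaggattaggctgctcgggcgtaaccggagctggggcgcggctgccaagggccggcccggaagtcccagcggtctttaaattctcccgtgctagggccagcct
P4HA1, chr10:73096867-73097116, minus strand: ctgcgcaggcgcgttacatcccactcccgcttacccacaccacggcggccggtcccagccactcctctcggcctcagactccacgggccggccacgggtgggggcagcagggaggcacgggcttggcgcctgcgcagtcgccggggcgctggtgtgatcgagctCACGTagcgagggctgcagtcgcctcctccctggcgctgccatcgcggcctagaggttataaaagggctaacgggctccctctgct
EGLN3, chr14:33951075-33951324, minus strand: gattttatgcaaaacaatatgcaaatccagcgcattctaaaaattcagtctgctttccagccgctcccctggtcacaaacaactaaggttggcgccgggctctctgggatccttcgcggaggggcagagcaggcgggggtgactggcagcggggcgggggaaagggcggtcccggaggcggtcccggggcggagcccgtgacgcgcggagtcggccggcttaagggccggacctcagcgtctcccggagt
The match in CA9 began 18 bases before the RefSeq gene start and that in P4HA1 86 bases before it. BNIP3 held 2 matches to ACGTG and 4 to GCGTG. The RefSeq starts differ from the starts in the GENCODE gene bounds given below. The windows of EGLN3, ANKRD37, ADM and KDM3A lie wholly within those bounds, and those of CA9, BNIP3 and P4HA1 partly. A match is a run of letters in this window only, and sites farther away or at other starts were not searched. The absence of the core in EGLN3 therefore holds only for the window at its RefSeq start.

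Levels are given as counts per 1000000 counts of the library after TMM scaling (CPM). Differences are log2 fold changes with their SE from edgeR's quasi-likelihood test over all genes, and a gene was called at a Benjamini-Hochberg adjusted p under 0.05. From Day 30 to Day 60, 2 of the 10 members were called, EGLN3 and BNIP3, both higher, where 10.3% of all genes were called (4.39% higher and 5.91% lower). From Day 60 to Day 113, 3 were called, BNIP3, NDRG1 and VEGFA, all lower, where 24% of all genes were called (12.9% higher and 11.1% lower). From Day 30 to Day 113, 6 were called, with EGLN3 and CA9 higher and BNIP3, NDRG1, VEGFA and P4HA1 lower, where 34.5% of all genes were called (17.3% higher and 17.2% lower). The median log2 change of the 10 members was 0.25, -0.24 and -0.13 in the 3 comparisons, beside -0.01, 0.00 and -0.02 over all genes. The count from Day 60 to Day 113 is near the background, and the comparisons share libraries, so their counts are not independent of each other. The 4 members BNIP3L, ANKRD37, ADM and KDM3A were called in no pair of days. The wells did not overlap for 3 members between Day 30 and Day 60 (EGLN3, CA9 and BNIP3, all higher; 10.7% of all genes higher, 14.1% lower and 24.8% in either direction), for 3 between Day 60 and Day 113 (BNIP3, NDRG1 and VEGFA, all lower; 16.2%, 14.4% and 30.6%) and for 4 between Day 30 and Day 113 (EGLN3 higher, and NDRG1, VEGFA and P4HA1 lower; 17.1%, 18% and 35.1%).

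**Figure D1:**
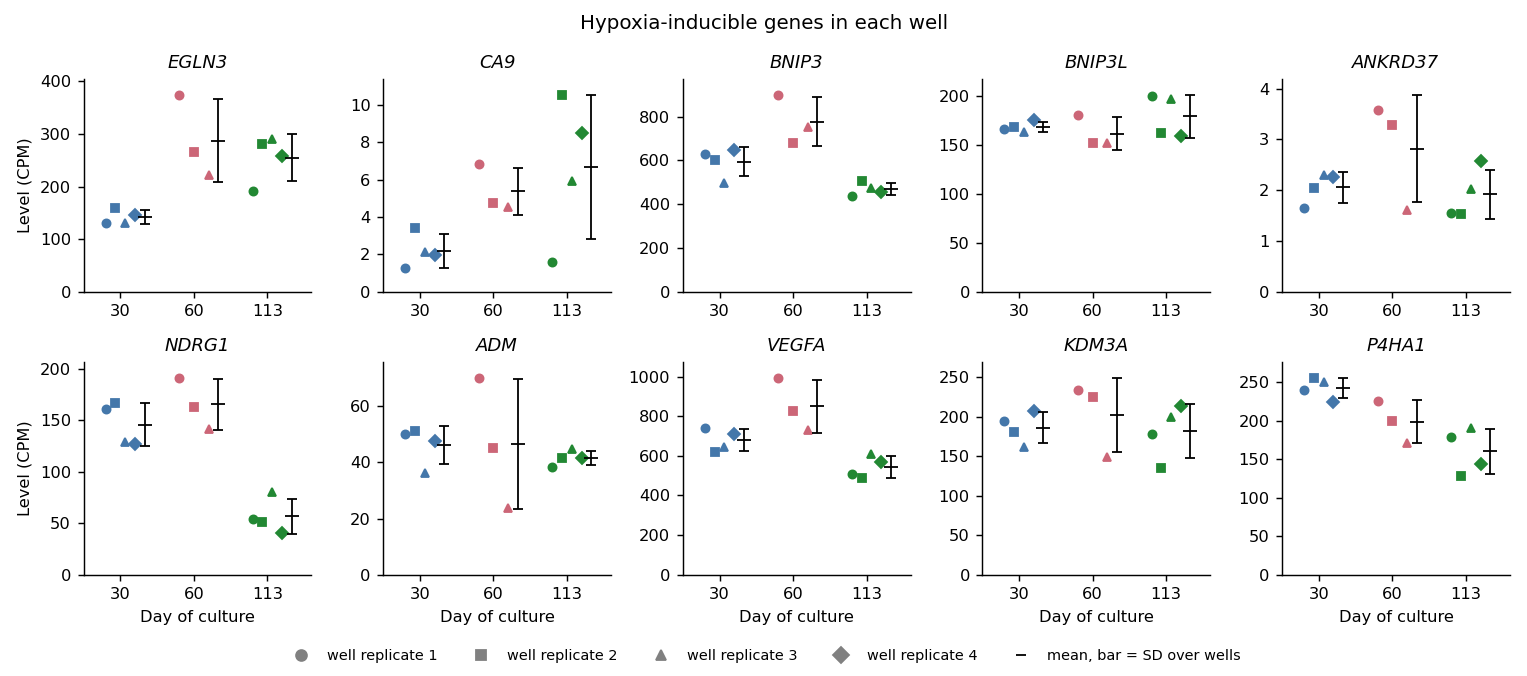
Level of each member (CPM, axis from 0) in every well by day of culture; symbols are well replicates, and the black dash and bar are the mean and SD over wells. NDRG1 was at 41.0 to 80.7 CPM in the Day 113 wells, below all earlier wells, whereas EGLN3 was at 191 CPM or more in every well after Day 30, above the 4 Day 30 wells.

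EGLN3 encodes a prolyl hydroxylase of the HIF alpha subunits and is itself a HIF target, which makes it part of a feedback loop. Its levels were 131, 159.9, 131 and 147 CPM in the Day 30 wells, 374, 266 and 221 CPM at Day 60 and 191, 280.3, 290.4 and 258 CPM at Day 113. All 7 later wells were above the 4 Day 30 wells, and Day 60 and Day 113 overlapped. Between Day 30 and Day 60, EGLN3 rose by 1.02 ± 0.16 on the log2 scale (SE; 2.02-fold, adjusted p 9.2e-04) and was 0.84 ± 0.15 higher (SE; 1.79-fold, adjusted p 5.4e-04) at Day 113 than at Day 30. The difference of -0.17 ± 0.16 (SE; adjusted p 0.50) between Day 60 and Day 113 was within the spread of the wells. The gene lies on chromosome 14 (33924231 to 34462774, minus strand, GRCh38, GENCODE 29).

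CA9 encodes a carbonic anhydrase on the cell surface that helps cells export acid, and it is among the genes most used as a marker of HIF activity. It was low in these cells, with 33 to 281 counts a library. The wells held 1.26, 3.40, 2.14 and 1.96 CPM at Day 30, 6.83, 4.75 and 4.54 CPM at Day 60 and 1.62, 10.5, 5.93 and 8.50 CPM at Day 113. Every Day 60 well was above every Day 30 well, and at Day 113 replicate 1 lay within the Day 30 range while the other 3 wells lay above it. CA9 rose by 1.59 ± 0.44 on the log2 scale (SE; 3.02-fold, adjusted p 0.010) between Day 30 and Day 113. The difference of 1.29 ± 0.46 (SE; adjusted p 0.095) between Day 30 and Day 60 was not called in the fit of all 11 libraries, but was called without Day 113 replicate 1 (1.29, adjusted p 0.013), with only the 2 days compared (adjusted p 0.016) and with DESeq2 (0.044). Under limma-voom the call from Day 30 to Day 113 was lost (1.26, adjusted p 0.10). CA9 (chromosome 9, 35673856 to 35681159, plus strand) overlaps exons of ARHGEF39 on the opposite strand, and whether counting used strand is not given in the sources used here. ARHGEF39 stood at 6.18, 5.84 and 5.54 CPM on the 3 days and was not called in any comparison (adjusted p 0.69 to 0.92).

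BNIP3 and BNIP3L encode paired receptors on the outer membrane of mitochondria that tether them to the autophagy machinery. BNIP3 was among the more abundant members, at 627, 600.2, 498 and 648 CPM at Day 30, 899.5, 679 and 752 CPM at Day 60 and 439, 505, 474 and 455 CPM at Day 113. The Day 60 wells were above all others, and the Day 30 and Day 113 ranges met at Day 30 replicate 3. BNIP3 rose by 0.39 ± 0.12 (SE; 1.31-fold, adjusted p 0.043) and then fell by 0.73 ± 0.12 on the log2 scale (SE; 1.66-fold lower, adjusted p 3.7e-04), to end 0.34 ± 0.11 below Day 30 (SE; 1.27-fold lower, adjusted p 0.022). The fall after Day 60 was called under every alternative on the counts. The rise to Day 60 was lost without Day 30 replicate 1, 2 or 3, Day 60 replicate 1 or 3 or Day 113 replicate 3 or 4 (adjusted p up to 0.19, without Day 60 replicate 1). The call from Day 30 to Day 113 was lost without Day 30 replicate 1, 2 or 4 or Day 113 replicate 4 (adjusted p 0.052 to 0.069).

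BNIP3L held 167, 169, 163 and 176 CPM at Day 30, 181, 152 and 152 CPM at Day 60 and 199.9, 162, 198 and 159 CPM at Day 113, with the 3 days overlapping. Its log2 changes of -0.06 ± 0.11, 0.15 ± 0.11 and 0.09 ± 0.10 (SE; adjusted p 0.82, 0.33 and 0.51) were not called. BNIP3L (chromosome 8, 26382898 to 26505636, plus strand) overlaps PNMA2 and SDAD1P1 on the opposite strand. PNMA2 was at 4.38, 7.62 and 12.8 CPM on the 3 days and rose by 1.56 between Day 30 and Day 113 (adjusted p 2.1e-04), and SDAD1P1 was at 4.92, 5.39 and 4.57 CPM and was not called (adjusted p 0.57 to 0.84). BNIP3 (chromosome 10, 131966455 to 131982013, minus strand) overlaps no annotated exon of another gene. Of 14 other mitophagy genes, 1 was higher and 0 lower at Day 60 than at Day 30, 0 higher and 1 lower at Day 113 than at Day 60, and 3 higher and 2 lower at Day 113 than at Day 30. These counts are near or below the background of 10.3%, 24% and 34.5% of all genes called in the same comparisons. SQSTM1, an autophagy cargo receptor, rose by 0.55 ± 0.08 (SE; adjusted p 8.8e-05) between Day 30 and Day 113, and BCL2L13, another receptor on mitochondria, fell by 0.39 ± 0.08 (SE; adjusted p 0.0020).

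VEGFA encodes the main growth factor of blood vessels, which heart muscle supplies to its capillaries. Its wells held 741, 621, 647 and 708 CPM at Day 30, 994, 828 and 730.4 CPM at Day 60 and 510.2, 488, 608 and 570.4 CPM at Day 113. All 4 Day 113 wells were below all earlier wells, and Day 60 replicate 3 lay within the Day 30 range. VEGFA fell by 0.64 ± 0.12 on the log2 scale (SE; 1.56-fold lower, adjusted p 0.0011) between Day 60 and Day 113. It was 0.33 ± 0.12 higher at Day 60 than at Day 30 (SE; adjusted p 0.099), which was not called, although DESeq2 (adjusted p 0.035) and the fit of only those 2 days (0.042) called it. From Day 30 to Day 113 it fell by 0.32 ± 0.11 (SE; adjusted p 0.034), a call that was lost without Day 30 replicate 1 or 4 or Day 113 replicate 1 or 2 (adjusted p 0.068 to 0.11). VEGFA lies on chromosome 6 (43770184 to 43786487, plus strand). It overlaps exons of AL136131.3 on the opposite strand, a symbol that is not in the count table.

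ADM encodes adrenomedullin, a secreted peptide that widens vessels. It held 49.9, 51.1, 36.2 and 47.7 CPM at Day 30, 70.1, 45.2 and 23.9 CPM at Day 60 and 38.4, 41.5, 44.7 and 41.4 CPM at Day 113. The 3 Day 60 wells covered the range of all other wells, with replicate 1 above and replicate 3 below every one of them. The day means of 46.2 ± 6.84 (SD, n = 4), 46.4 ± 23.1 (SD, n = 3) and 41.5 ± 2.58 CPM (SD, n = 4) gave log2 changes of 0.01, -0.16 and -0.15 (adjusted p 0.99, 0.68 and 0.64). ADM lies on chromosome 11 (10304680 to 10307397, plus strand).

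Most receptors of these ligands rose after Day 60, while VEGFA fell. Of 7 receptor genes tested, 5 were higher and 1 lower at Day 113 than at Day 60, and 4 were higher and 1 lower at Day 113 than at Day 30. KDR, the main signalling receptor of VEGFA, rose by 1.48 ± 0.29 (SE; adjusted p 0.0019) after Day 60, from 20.4 ± 5.28 (SD, n = 3) to 56.6 ± 29.6 CPM (SD, n = 4). CALCRL, the adrenomedullin receptor, rose by 1.98 ± 0.33 (SE; adjusted p 5.5e-04), and RAMP2, which gives CALCRL its preference for adrenomedullin, by 1.86 ± 0.49 (SE; adjusted p 0.011). RAMP1, which turns the same receptor to another peptide, rose in both intervals, by 1.34 ± 0.20 (SE; adjusted p 6.2e-04) and 1.55 ± 0.21 (SE; adjusted p 1.1e-04). All 10 endothelial markers tested, which include KDR, were also higher at Day 113 than at Day 60, with a summed level of 42.0 to 69.8 CPM at Day 60 and 219 to 876 CPM at Day 113. In bulk RNA, more cells of a type and more RNA per cell cannot be told apart, and the part of endothelial cells in these receptor levels was not tested.

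P4HA1 and KDM3A encode enzymes of the same oxygen-using class as EGLN3. P4HA1 is the catalytic subunit of the collagen prolyl hydroxylase; its wells held 240.3, 255, 249.6 and 224 CPM at Day 30, 226, 200.1 and 171 CPM at Day 60 and 179, 128, 191 and 144 CPM at Day 113. The Day 113 wells were all below the Day 30 wells and overlapped those of Day 60. P4HA1 fell by 0.59 ± 0.12 on the log2 scale (SE; 1.51-fold lower, adjusted p 0.0014) between Day 30 and Day 113, with -0.28 ± 0.13 (SE; adjusted p 0.21) and -0.31 ± 0.13 (SE; adjusted p 0.10) in the 2 intervals, neither of them called. The second was called with upper-quartile scaling (-0.37, adjusted p 0.047) and without Day 113 replicate 3 (-0.40, adjusted p 0.044). P4HA1 lies on chromosome 10 (73007217 to 73096974, minus strand). It overlaps exons of AL731563.2 on the opposite strand, which is likewise not in the count table.

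KDM3A, a demethylase of histone H3, held 195, 181, 161 and 207 CPM at Day 30, 234, 225 and 149 CPM at Day 60 and 178, 135, 199.98 and 214 CPM at Day 113. The days overlapped fully, and its changes of 0.12 ± 0.16, -0.16 ± 0.16 and -0.03 ± 0.15 (SE; adjusted p 0.74, 0.54 and 0.89) were not called. The gene lies on chromosome 2 (86440647 to 86492716, plus strand).

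NDRG1, a stress-response protein that is also induced by metal chelation and by p53, fell most of the 10 members. It held 161, 167, 129 and 127 CPM at Day 30, 192, 163 and 142 CPM at Day 60 and 54.6, 51.1, 80.7 and 41.0 CPM at Day 113. No Day 113 well reached the lowest earlier well, and Day 30 and Day 60 overlapped. NDRG1 fell by 1.54 ± 0.18 on the log2 scale (SE; 2.91-fold lower, adjusted p 3.5e-05) between Day 60 and Day 113 and by 1.36 ± 0.17 (SE; 2.56-fold lower, adjusted p 1.9e-05) from Day 30. Its change of 0.18 ± 0.18 (SE; adjusted p 0.63) up to Day 60 was not called. NDRG1 lies on chromosome 8 (133237171 to 133302022, minus strand).

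ANKRD37, a small ankyrin-repeat protein of uncertain role, had the lowest mean CPM of the members on every day, with 41 to 112 counts a library. It held 1.64, 2.03, 2.30 and 2.27 CPM at Day 30, 3.57, 3.28 and 1.61 CPM at Day 60 and 1.56, 1.54, 2.03 and 2.57 CPM at Day 113. Day 60 replicates 1 and 2 were the 2 highest of all wells, while replicate 3 was among the lowest. Its changes of 0.45 ± 0.37, -0.55 ± 0.37 and -0.10 ± 0.34 (SE; adjusted p 0.54, 0.31 and 0.85) were not called, and at this depth a change of the size seen in BNIP3 would lie within 2 of these SE. ANKRD37 (chromosome 4, 185396021 to 185400628, plus strand) overlaps UFSP2 on the opposite strand, which was at 34.1, 42.6 and 39.2 CPM on the 3 days.

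**Figure D2:**
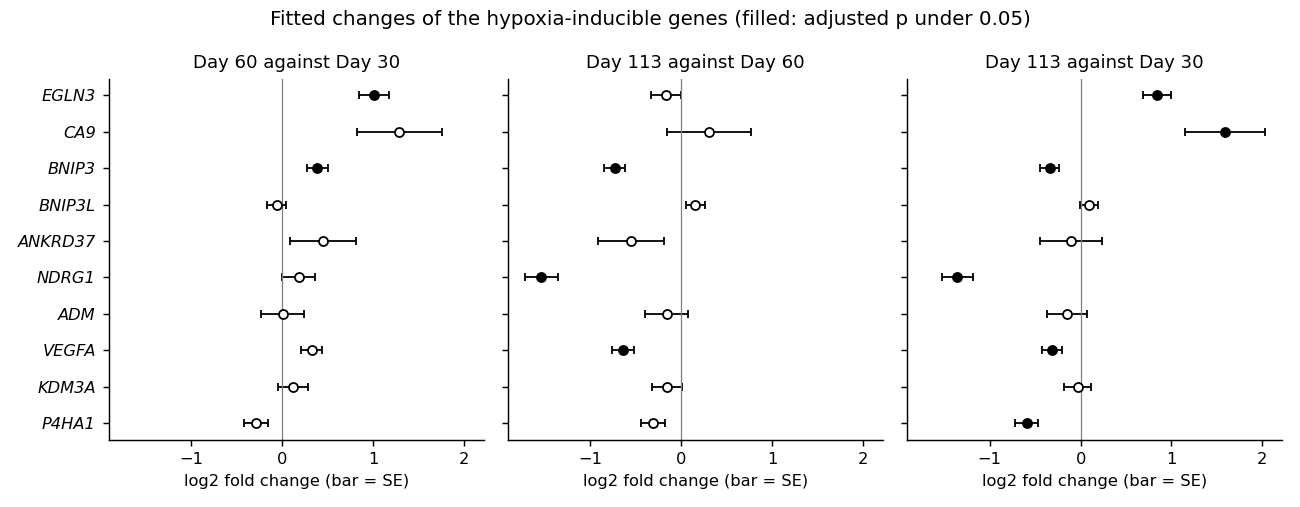
Fitted log2 fold change of each member in the 3 pairs of days, with its SE; filled points passed an adjusted p of 0.05. NDRG1 lies farthest to the left in both comparisons with Day 113 (-1.54 and -1.36), and CA9 farthest to the right from Day 30 to Day 113 (1.59).

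Over the 3 days together, 6 of the 10 members changed, where 37.1% of all genes did. The difference between the intervals (the change after Day 60 minus the change before it) was called for 4 members, all below 0, where 9.34% of all genes were called and 4.38% were called below 0 and 4.97% above it. It was -1.19 ± 0.28 for EGLN3 (SE; adjusted p 0.017), -1.12 ± 0.20 for BNIP3 (SE; adjusted p 0.0032), -1.72 ± 0.31 for NDRG1 (SE; adjusted p 0.0032) and -0.97 ± 0.21 for VEGFA (SE; adjusted p 0.0087). Without Day 60 replicate 1, 2 members and 3.22% of all genes were called. P4HA1 had a difference of -0.02 ± 0.24 (SE; adjusted p 0.97). The mean level was highest at Day 60 for 7 members (27.4% of all genes) and lowest at Day 113 for 7 (39.2%), counts that include members called in no pair of days, such as ADM.

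The wells of Day 60 differed from each other in the same order for nearly all members. Replicate 1 held the highest Day 60 level of all 10 members, where it did so for 33.1% of all 19990 genes, and replicate 3 held the lowest level of 9, where it did so for 37.6% of all genes. Levels ran down from replicate 1 over replicate 2 to replicate 3 for 9 members and for 18.9% of all genes. Replicate 1 exceeded replicate 3 by 2.94-fold for ADM, 2.22-fold for ANKRD37, 1.69-fold for EGLN3 and 1.57-fold for KDM3A, and by 1.19-fold for BNIP3L and 1.20-fold for BNIP3. The median over the 10 members was 1.43-fold and that over all genes 1.01-fold. No test was made of this order, since wells carry no label beyond their number.

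The same well was highest for other HIF targets: for 22 of 29 targets outside glycolysis and for 21 of 22 glycolytic targets. It was also highest for 8 of 12 cardiomyocyte markers, which together reached 48654 CPM there, 42924 CPM in replicate 2 and 43301 CPM in replicate 3, and for 6 of 10 fibroblast and epicardial markers. It was highest for 3 of 14 mitophagy genes and for 1 of 10 endothelial markers. Replicate 1 held 32.4 M counts, replicate 2 26.8 M and replicate 3 31.6 M, and the part of depth in this order was not tested. The log2 change of EGLN3 up to Day 60 was 0.80 to 1.20 when single wells of any day were left out or the method was changed.

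**Figure D3:**
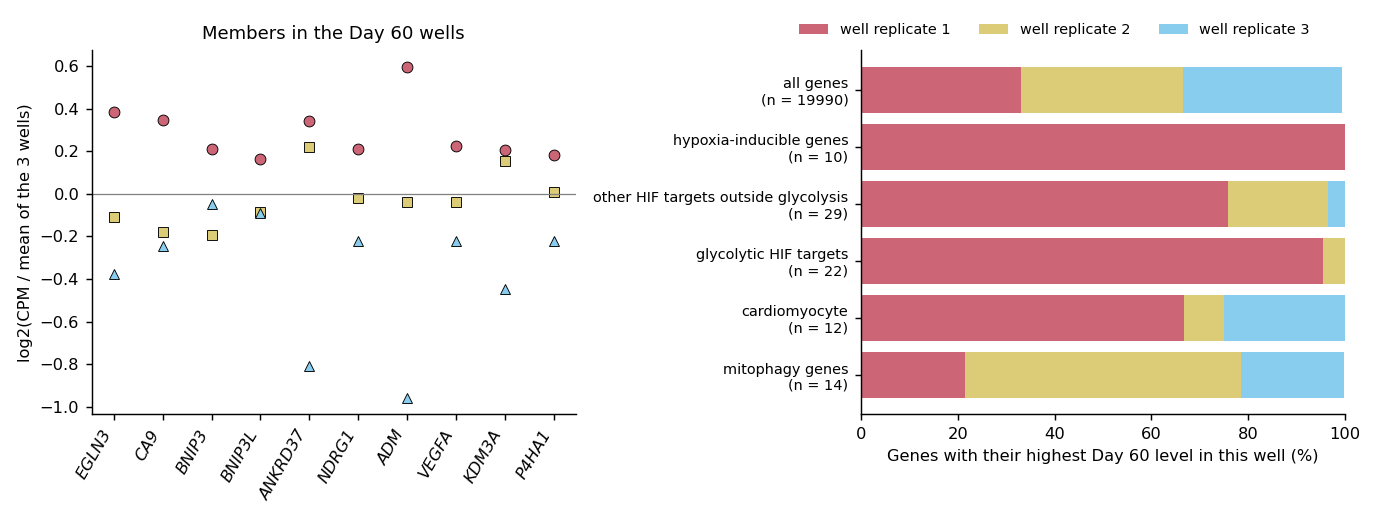
Left, level of each member in the 3 Day 60 wells as log2 of CPM over their mean; right, share of the genes of each list (%) whose highest Day 60 level was in each well. Replicate 1 lies above the other wells for all 10 members, against 33.1% of all genes.

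On the other days no well was highest for more than 5 members. At Day 30, replicate 2 was highest for 5 members (25.6% of all genes) and replicate 3 lowest for 4 (23.1%). That replicate 3 was also lowest for 19 of 22 glycolytic and 15 of 29 other HIF targets, and for 11 of 12 cardiomyocyte markers. At Day 113, replicate 3 was highest for 5 members (EGLN3, NDRG1, ADM, VEGFA and P4HA1; 19.3% of all genes) and lowest for 0 (18.8%), and replicates 1 and 2 were each lowest for 4 (25.1% and 28.7%). The Day 113 wells of CA9 and EGLN3 both had their lowest value in replicate 1, at 1.62 and 191 CPM. That well also held the highest summed level of endothelial markers, 876 CPM, and the part of this in the 2 values was not tested.

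To compare levels between members, CPM was divided by the exon length of each gene in GENCODE 29, all isoforms merged, which can understate genes with long, rarely used exons. On this scale (CPM per kilobase) BNIP3 was the highest on every day, at 111 ± 12.5 (SD, n = 4), 146 ± 21.1 (SD, n = 3) and 87.9 ± 5.31 (SD, n = 4). P4HA1 came next, at 78.3 ± 4.37, 64.3 ± 8.92 and 51.8 ± 9.45. Its wells overlapped those of VEGFA at Day 60 and those of BNIP3L and VEGFA at Day 113. At Day 30 the order went on with VEGFA (47.0), BNIP3L (39.1), EGLN3 (19.3), ADM (17.0), NDRG1 (14.8), KDM3A (13.9), CA9 (1.31) and ANKRD37 (0.80). From EGLN3 to KDM3A each neighbour overlapped the next at Day 30, as did CA9 and ANKRD37. By Day 113 EGLN3 stood at 34.6 ± 6.05 and its wells overlapped those of VEGFA, at 37.7 ± 3.83, whereas NDRG1 had gone to 5.79 ± 1.72, where its wells overlapped those of CA9, at 3.98 ± 2.30 (SD, n = 4 each).

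HIF1A, the alpha subunit found in most cells, was at 214 ± 13.2 (SD, n = 4), 200.3 ± 14.8 (SD, n = 3) and 226 ± 46.2 CPM (SD, n = 4) on the 3 days and was not called in any comparison (adjusted p 0.77, 0.40 and 0.67), although without Day 113 replicate 2 its change after Day 60 was called (0.30, adjusted p 0.030). Of 11 machinery genes tested, 0 were higher and 2 lower at Day 60 than at Day 30, 2 higher and 2 lower at Day 113 than at Day 60, and 1 higher and 3 lower at Day 113 than at Day 30. Over all genes, 10.3%, 24% and 34.5% were called in these comparisons. ARNT, EGLN1, VHL, HIF1AN (the factor-inhibiting hydroxylase) and CREBBP (a coactivator) were called in no pair of days. The Day 60 call of CITED2 (-0.33 ± 0.10, SE; adjusted p 0.042) was lost in 10 of 20 alternatives on the counts, among them both other scalings and the removal of any single Day 30 or Day 60 well (adjusted p up to 0.16). EP300, a coactivator, was the other gene lower at Day 113 than at Day 30 (-0.36 ± 0.14, SE; adjusted p 0.049) beside HIF3A and CITED2, a call lost in 12 of 20 (adjusted p up to 0.14), among them the removal of any single Day 30 or Day 60 well. EGLN2 was not analysed here.

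HIF3A, whose products can restrain the other alpha subunits, fell by 0.86 ± 0.11 on the log2 scale (SE; adjusted p 7.5e-05) after Day 60, from 252 ± 22.3 (SD, n = 3) to 139 ± 9.10 CPM (SD, n = 4). CITED2, a HIF target that competes with HIF for its coactivators, fell by 0.74 ± 0.09 (SE; adjusted p 1.5e-05) between Day 30 and Day 113. ARNT2 rose by 1.22 ± 0.19 (SE; adjusted p 1.6e-04) over the same time, from 7.39 ± 1.69 to 17.2 ± 2.83 CPM (SD, n = 4 each). EPAS1, the alpha subunit most typical of endothelial cells, was at 82.1 ± 49.4 (SD, n = 4), 31.4 ± 5.40 (SD, n = 3) and 69.0 ± 23.2 CPM (SD, n = 4). It was called lower at Day 60 (-1.39 ± 0.38, SE; adjusted p 0.026) and higher again at Day 113 (1.14 ± 0.37, SE; adjusted p 0.036). Both EPAS1 calls were lost under limma-voom, with robust dispersions and without any single Day 60 well. The first was also lost without Day 30 replicate 2 or 3 and the second with DESeq2 or without Day 113 replicate 1 or 3 (adjusted p up to 0.14).

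**Figure D4:**
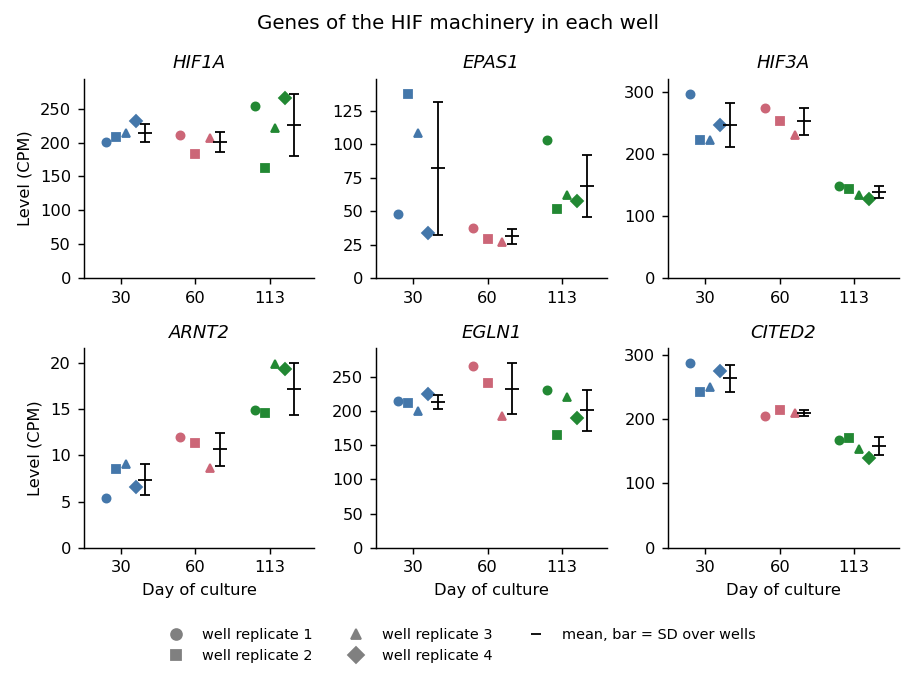
Level (CPM, axis from 0) of 6 genes of the HIF machinery in every well by day; symbols are well replicates, and the dash and bar are the mean and SD. HIF1A stays near 200.3 to 226 CPM on average, and HIF3A and CITED2 are lower in the Day 113 wells than in all earlier ones.

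Other HIF targets fell after Day 60 more often than they rose. Of 29 targets outside glycolysis, 4 were higher and 4 lower at Day 60 than at Day 30 (4.39% and 5.91% of all genes). At Day 113 against Day 60, 3 were higher and 10 lower (12.9% and 11.1% of all genes). The median log2 change was -0.26 in the second comparison beside 0.00 over all genes. Some of the 29 are also counted in the machinery, receptor, paralog and stress-response lists. NDUFA4L2, a HIF-induced mitochondrial protein, rose by 1.56 ± 0.17 (SE; adjusted p 3.1e-05) to Day 60 and stayed 1.34 ± 0.16 above Day 30 at Day 113 (SE; adjusted p 1.1e-05), as EGLN3 did. EDN1, which encodes the vessel-constricting peptide endothelin and is also a product of endothelial cells, went the other way: it fell by 1.76 ± 0.28 (SE; adjusted p 7.3e-04) to Day 60 and rose by 1.51 ± 0.27 (SE; adjusted p 0.0010) after it. CA12, a relative of CA9 and likewise low, rose by 1.85 ± 0.57 (SE; adjusted p 0.019) from 0.62 to 2.26 CPM between Day 30 and Day 113, a call lost without Day 30 replicate 1 or Day 113 replicate 3 (adjusted p up to 0.069).

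Of 22 glycolytic HIF targets, 1 was higher and 13 lower at Day 113 than at Day 60 (12.9% and 11.1% of all genes). At Day 113 against Day 30, 1 was higher and 15 lower (17.3% and 17.2% of all genes), with a median log2 change of -0.43. The glucose transporters SLC2A3 and SLC2A1 fell by 2.23 ± 0.17 (SE; adjusted p 1.0e-07) and by 1.22 ± 0.17 (SE; adjusted p 4.3e-05) between Day 30 and Day 113, and HK2, which traps glucose in the cell, fell by 1.63 ± 0.19 (SE; adjusted p 8.7e-06). ALDOC, an aldolase typical of brain, was the 1 that rose, by 1.79 ± 0.14 (SE; adjusted p 1.4e-07).

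**Figure D5:**
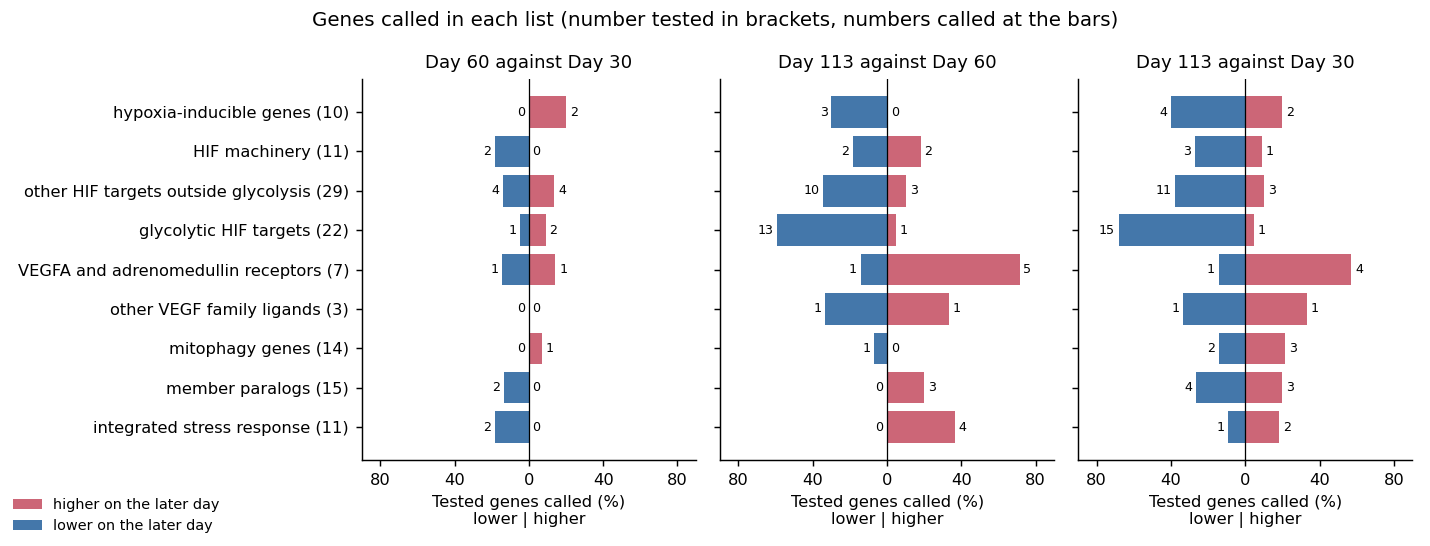
Share of the tested genes of each list (%) that were called higher (right) or lower (left) on the later day in each pair of days; numbers at the bars are genes. The glycolytic HIF targets have 13 and 15 genes lower in the comparisons with Day 113, and the receptors of VEGFA and adrenomedullin have 5 and 4 higher.

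Genes with the most similar profiles were sought for the 3 members whose day means ranged most, NDRG1, CA9 and EGLN3. Likeness was the mean absolute difference between log2 CPM profiles, each centred on its own mean, over 11 libraries and 11938 genes with a mean of at least 5 CPM. Nearest to NDRG1 were RAB3A (0.15), ARHGAP45 (0.17) and ERO1A (0.18), where the median gene differed by 0.70. ERO1A, an oxidase of the endoplasmic reticulum, was already on the list of other HIF targets and went from 259 ± 26.9 (SD, n = 4) and 268 ± 58.2 (SD, n = 3) to 99.98 ± 30.0 CPM (SD, n = 4). Nearest to EGLN3 were PLPP7 (0.15), PDZRN3-AS1 (0.16) and DHRS3 (0.17), where the median was 0.48. CA9 had no neighbour as close: CKMT2, the muscle mitochondrial creatine kinase, differed by 0.36, LYPD1 by 0.42 and CFI by 0.43, where the median was 0.86.

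The cells carried cardiomyocyte markers throughout, and markers of other cells changed over the same days. The 12 cardiomyocyte markers summed to 33570 to 45300 CPM at Day 30, 42920 to 48650 at Day 60 and 36900 to 41060 at Day 113. All 8 endoderm and liver markers were lower at Day 60 than at Day 30 (462 to 1350 CPM summed at Day 30, 47.0 to 55.8 at Day 60, 11.7 to 41.2 at Day 113), as were 7 of 8 epithelial markers (2196 to 3186, 1290 to 1478 and 1175 to 1964 CPM). Of 10 fibroblast and epicardial markers, 6 were higher and 1 lower at Day 113 than at Day 60 (2269 to 3714 against 5609 to 13250 CPM summed, and 3458 to 7812 at Day 30). Of the 5 immune markers, 2 were tested, at 0.77 to 3.49 CPM summed. Between Day 30 and Day 113, 0 epithelial markers were higher and 7 of 8 lower. The part of these cells in the changes of the 10 members was not tested.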

How the data were processed

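Per the submitters' processing notes, the names STAR 2.5.3a, featureCounts 2.0.3 and build hg38 belong to the authors' processing; settings and annotation are not given in the sources used here. The authors deposited whole-number read counts for 19990 genes in 11 libraries, with no normalization, and TPM values for the same genes. The gene length implied by count over TPM was unrelated between libraries (median Spearman rho across 11210 genes -0.002 over 55 pairs of libraries), so the deposited TPM values entered only as alternatives.

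Counts were fitted with edgeR 4.0.16 (glmQLFit and glmQLFTest, R 4.3.3), TMM scaling, all 11 libraries and day as its factor. At a minimum count of 10, filterByExpr kept all 19990 genes. P-values were adjusted by Benjamini-Hochberg over all genes in each comparison, and SE is the absolute log2 change over the square root of F. On simulated counts (Day 60 against Day 30, 19990 genes, of which 200 were changed), 96% of 4-fold and 67% of 2-fold changes were recovered. Of 172 genes called, 9 were unchanged. The changed genes were not drawn from those with low counts, and changes below 2-fold were not simulated. Alternatives used DESeq2 1.42.0 and limma 3.58.1, other scalings, filters and left-out wells. Pairs of wells of 1 day differed by more than sampling noise and were counted as separate samples.

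The members and lists were chosen with earlier results of these data known. The naming rule took all members and machinery genes, up to 4 genes per other list (the largest called changes with a mean of at least 1 CPM) and 3 nearest profiles; a gene that this rule selects is not reported here. Genes named as overlapping were read from GENCODE 29 (GRCh38). Symbols of the lists that are not in the table (EGLN2, EPO, RAMP3, VEGFD, MYH11, PTPRC, CD14 and CD3E) were not analysed here.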

Additional observations from a re-analysis of the deposited data

How the results depend on the processing

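Of the 11 called changes of members between days, 7 were called in the same direction under all 20 alternatives on the counts, namely both rises of EGLN3, the falls of BNIP3, VEGFA and NDRG1 after Day 60, and the falls of NDRG1 and P4HA1 between Day 30 and Day 113. The wells come from 1 differentiation, CA9 and ANKRD37 have few counts, and Day 60 has only 3 wells. The cause of each change with the processing was not tested.

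At an adjusted p under 0.01, 1 member was called at Day 60 against Day 30 (4.69% of all genes), and 3 were called at Day 113 against Day 30 (22.8%). Between Day 30 and Day 60, DESeq2 called 4 members (13.6% of all genes) and edgeR on only the 2 days 4 (15.7%). Leaving out 1 well in turn gave 1 to 3 members at Day 60 against Day 30 (6.11 to 13.2% of all genes), then 3 to 4 at Day 113 against Day 60 (16.6 to 23.9%), 4 to 6 over the whole span (28.6 to 34.9%), 5 to 6 for any change over the 3 days (32.2 to 37.5%) and 2 to 4 for the difference between the intervals (3.22 to 11.2%). With the replicate number as a block, 3, 3 and 6 members were called in the 3 pairs of days (12.4%, 24.8% and 35.7% of all genes), 6 over the 3 days (38.9%) and 4 for the difference between the intervals (11.8%); CA9 was then called between Day 30 and Day 60 (1.56, adjusted p 0.038). Same-numbered wells correlated by 0.023 to 0.076 over 10 pairs. Of 20 best matches, each sought among the 3 or 4 wells of another day, 17 had the same number. These values cannot settle whether the numbers pair wells across days, which the labels do not state. The main fit did not pair them.

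On the counts, these directions reversed, all in changes that were not called. For ADM between Day 30 and Day 60, the log2 change was -0.12 under limma-voom, -0.056 with the block and -0.10 without Day 30 replicate 3, and leaving out Day 60 wells gave -0.40 (replicate 1) to 0.34 (replicate 3). For CA9 between Day 60 and Day 113 it was -0.074 under limma-voom and -0.061 with the block, and -0.012 to 0.63 over the left-out wells (Day 113 replicates 2 and 1). After Day 60, leaving out Day 60 replicate 3 or 1 gave -0.34 or 0.057 for EGLN3 and -0.48 or 0.26 for ADM. It was 0.0091 for BNIP3L between Day 30 and Day 60 without Day 60 replicate 3, and for KDM3A between Day 30 and Day 113 the values were 0.022 (Day 30 replicate 4 left out) and 0.086 (Day 113 replicate 2).

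In limma on the deposited TPM values, 0 members were called in every comparison, and at an unadjusted p under 0.05 0 to 2. At most 0.05% of all genes were called in any of these fits. The gene lengths implied by the TPM values were unrelated between libraries, so neither these calls nor the signs below can test the results on the counts. With log2(TPM + 1), with or without a minimum mean TPM of 1, these values had the opposite sign to the counts. Between Day 30 and Day 60 they were -0.053 for CA9, -1.38 for ADM and -0.0014 for VEGFA. Between Day 60 and Day 113 they were 0.15 for EGLN3, 0.90 for BNIP3, -0.42 for BNIP3L, 2.85 for ADM and 0.78 for P4HA1. Between Day 30 and Day 113 they were 1.37 for BNIP3, -1.60 for BNIP3L, 1.47 for ADM and 0.33 for P4HA1. With log2(TPM + 0.1), ADM was at -1.54 in the first pair. In the second pair EGLN3 was at 0.16, BNIP3 at 0.89, BNIP3L at -0.44, ADM at 3.08 and P4HA1 at 0.79, and between Day 30 and Day 113 BNIP3 was at 1.37, BNIP3L at -1.65, ADM at 1.54 and P4HA1 at 0.33.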

Other observations

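Relatives of the members were tested as a list of their own. Of 15 paralogs or partners tested, 0 were higher and 2 lower at Day 60 than at Day 30, 3 higher and 0 lower at Day 113 than at Day 60, and 3 higher and 4 lower at Day 113 than at Day 30. Over all genes, 10.3%, 24% and 34.5% were called in these comparisons. P4HA3, an isoform of the collagen prolyl hydroxylase that is rare in most tissues, rose by 3.75 ± 0.75 on the log2 scale (SE; adjusted p 0.0011) from 0.16 to 2.23 CPM between Day 30 and Day 113, while P4HA1 fell. CA3, a carbonic anhydrase of muscle and fat, fell by 1.76 ± 0.31 (SE; adjusted p 3.9e-04) over the same time, while CA9 rose. The other called relatives went both ways over that time. P4HB, the partner subunit of P4HA1, fell by 0.39 ± 0.11 (SE; adjusted p 0.0095), NDRG3 fell by 0.31 ± 0.09 (SE; adjusted p 0.015) and CA12, given above, rose, each as its member did. NDRG4 rose by 0.72 ± 0.14 (SE, adjusted p 7.5e-04) while NDRG1 fell, and CA2 fell by 1.07 ± 0.32 (SE, adjusted p 0.015) while CA9 rose. P4HB, NDRG3, NDRG4 and CA2 were named after their values were seen. Of the 3 other VEGF ligands tested, 0 were called at Day 60 against Day 30, and 1 was higher and 1 lower in each comparison with Day 113. PGF, placental growth factor, rose by 3.84 ± 0.51 (SE; adjusted p 8.4e-05) after Day 60, from 1.55 ± 0.78 (SD, n = 3) to 21.9 ± 12.4 CPM (SD, n = 4), while VEGFA fell. VEGFB fell by 0.39 ± 0.12 after Day 60 (SE; adjusted p 0.024), a call lost with only the 2 days compared and without Day 60 replicate 1 or Day 113 replicate 1, 3 or 4 (adjusted p up to 0.14). VEGFC fell by 0.66 ± 0.20 over the whole span (SE; adjusted p 0.016), a call lost without Day 30 replicate 1 (0.079).

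VEGFA and NDRG1 are also known to respond to the integrated stress response, which acts through ATF4. Of 11 genes of that response, 0 were higher and 2 lower at Day 60 than at Day 30, and 4 were higher and 0 lower at Day 113 than at Day 60. From Day 30 to Day 113, 2 were higher and 1 lower. Over all genes, 10.3%, 24% and 34.5% were called in these comparisons. ATF4 RNA was called in no pair of days (adjusted p 0.33, 0.18 and 0.90). The part of this response in the changes of VEGFA and NDRG1 was not tested. TRIB3, an ATF4 target, rose by 2.85 ± 0.27 (SE; adjusted p 6.4e-06) after Day 60, from 5.29 ± 1.42 (SD, n = 3) to 38.1 ± 13.5 CPM (SD, n = 4). PSAT1, an enzyme of serine synthesis, rose by 1.56 ± 0.26 (SE; adjusted p 5.7e-04), and CHAC1, which breaks down glutathione, by 2.03 ± 0.53 (SE; adjusted p 0.011). ATF3 fell by 1.62 ± 0.26 (SE; adjusted p 8.2e-04) up to Day 60.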
